A study of Mus musculus with 2 samples.

Results

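Cells high in Spink4 and Tff3 were taken as the top 10% of the cells of each library, ranked by the summed counts of both genes per 10000 counts of the cell. They were 85 of 854 cells in the Pyr library and 160 of 1602 cells in the DMSO library, 2 libraries in all. They were set against the cells of the same library with 0 counts of both genes (zero-count cells), 692 in the Pyr library and 1257 in the DMSO library. The other 77 Pyr and 185 DMSO cells held a count of either gene but ranked lower. Both libraries are single-cell RNA sequencing of Meta4 organoids, a dysplastic mouse line from the stomach corpus that carries Mist1-CreERT2Tg/+ and LSL-K-ras(G12D)Tg/+ and is labelled as induced to dysplasia. The Mist1 promoter, active in chief cells of the corpus, drives a tamoxifen-inducible Cre that frees the mutant K-ras allele, and both libraries carry it. Pyr organoids received pyrvinium, an anthelmintic drug, and DMSO organoids the solvent, for 1 day. Whether the line is 1 clone or pools several animals, and the age and sex of the animals, were not stated in the labels.

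Tff3 encodes a trefoil peptide and Spink4 a small Kazal-type protease inhibitor. In the intestine both are secreted by goblet cells, which are defined by the gel-forming mucin Muc2 and depend on the transcription factors Atoh1 and Spdef. In the normal stomach, surface mucous cells secrete the trefoil peptide Tff1 with the mucin Muc5ac, and mucous neck cells secrete Tff2 with Muc6. Tff3 and other goblet transcripts are known there mainly from intestinal metaplasia. In the mouse genome Tff1, Tff2 and Tff3 are neighbours on 1 chromosome.

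With 1 library per treatment there was no test, and no difference has a replicate check. For each class of cells, a gene's level is its share of the summed counts, in counts per 1000000 (CPM). Each log2 ratio has an exact 95% interval that covers counting error only, and cells were not treated as replicates. A gene passed the size rule when the ratio reached 1.5-fold in either direction, its interval did not include equality, and both classes together held 20 counts or more. The words higher and lower in the counts of genes refer to this rule. The classes differed in depth, with a median of 32099 counts in Spink4/Tff3-high cells and 27894 in zero-count cells of the Pyr library, and 13841.5 and 17791 in the DMSO library. Mitochondrially encoded genes took 2.14% and 1.61% of the counts of these classes in the Pyr library and 2.79% and 2.54% in the DMSO library. No cell barcode was shared by the libraries, and doublets were not removed. Of the epithelial genes, Epcam was at 374 and 375 CPM in Spink4/Tff3-high and zero-count cells of the Pyr library and 335 and 351 CPM in the DMSO library. The parietal gene Atp4b and the chief cell gene Pga5 had 0 counts in Spink4/Tff3-high cells of both libraries. Of the chief and parietal cell list, however, 3 of 8 genes were higher and 0 lower in these cells of the Pyr library. In the DMSO library 2 of 8 were higher and 1 lower, and the chief cell gene Pgc was higher in both libraries. Over all genes 11.5% were higher in the Pyr library and 2.55% in the DMSO library.

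The choice of the cells rested on few counts. Spink4/Tff3-high cells held 458 counts of both genes in the Pyr library and 906 in the DMSO library, which was 82.7% and 77.6% of the counts of these genes in all cells of the library. The median cell had 2 counts in the Pyr library and 3 in the DMSO library. The highest cell had 68 and 87 counts, and the 10 highest cells held 58.1% and 41.8% of the counts of the class. A single count of either gene was all that 29 of the 85 Pyr cells and 51 of the 160 DMSO cells had, while 39 and 85 cells had at least 3. In the ranking measure the Pyr cells spanned 0.292 to 19.6 counts per 10000 with a median of 0.617. The DMSO cells spanned 0.710 to 37.6 with a median of 1.31. The last Pyr cell inside the limit stood at 0.292 and the first outside at 0.282. The DMSO cells at the limit stood at 0.710 and 0.708, so no gap separated the class from the next cells in either library. These values chose the cells and are given as a description.

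Few cells carried both genes. Among Spink4/Tff3-high cells, 21 Pyr and 78 DMSO cells had Spink4 counts only, 55 Pyr and 60 DMSO cells had Tff3 counts only, and 9 Pyr and 22 DMSO cells had both. Spink4 only was thus 24.7% of the Pyr class and 48.8% of the DMSO class, a description of the counts that chose the cells. Among all cells, those with a Spink4 count had 7.37 CPM of Tff3 in the Pyr library, against 10.6 CPM in cells without Spink4. In the DMSO library the same values were 12.1 and 13.6 CPM, and both intervals of the log2 ratio included 0. Taken the other way, cells with a Tff3 count had 3.65 CPM of Spink4, against 4.97 CPM in cells without Tff3 in the Pyr library. DMSO cells with and without Tff3 had 22.7 and 14.6 CPM of Spink4 (log2 ratio 0.63, interval 0.35 to 0.91). A single cell with 1 Tff3 count held 74 of the 134 Spink4 counts of the DMSO cells with Tff3. With a minimum of 3 Tff3 counts per cell, which leaves that cell out, 42 DMSO cells had 10.1 CPM of Spink4 against 14.6 CPM. The direction thus turned. With a minimum of 3 Spink4 counts, 11 Pyr cells had 21.4 CPM of Tff3 against 10.6 CPM, which turned that direction as well. A single cell held 11 of their 15 Tff3 counts. By the same minimum, 56 DMSO cells had 18.3 CPM against 13.6 CPM. With every cell thinned to 5000 counts, Spearman's rho between the counts of the genes was 0.0762 over 854 Pyr cells and 0.0216 over 1602 DMSO cells. By share of cells, Tff3 was counted in 19.7% of Pyr cells with Spink4 and 12.7% of those without. In the DMSO library these shares were 15.2% and 10.1%. Spink4 was counted in 10.6% and 6.61% of Pyr cells with and without Tff3, and in 18.0% and 12.1% of DMSO cells. Cells with Spink4 were deeper, with medians of 56923 and 29879 counts (Pyr) and 24488.5 and 18318.5 (DMSO). The part of depth in these shares was not tested. All these values describe sparse counts within 1 library each.

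**Figure D1:**
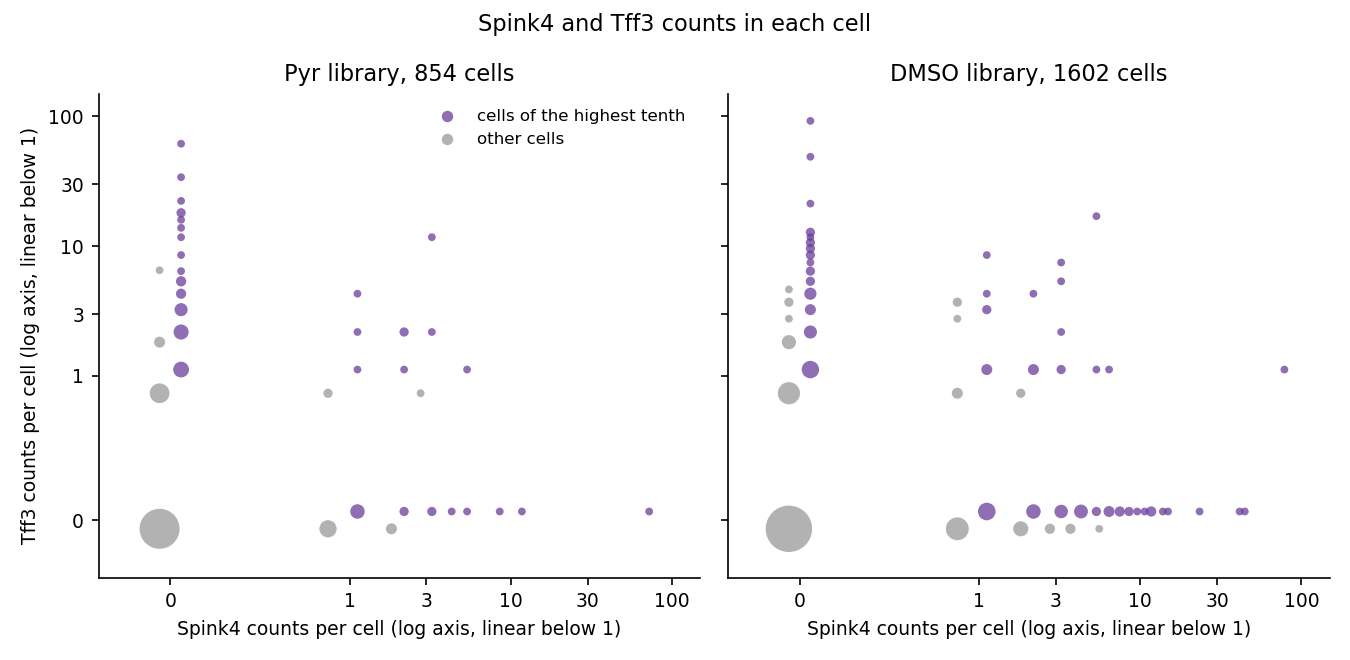
Spink4 counts (x axis) against Tff3 counts (y axis) per cell, both on log axes that are linear below 1, in the Pyr library (left) and the DMSO library (right). The area of a circle grows with the square root of the number of cells, and purple circles (top 10%) and grey circles (other cells) are shifted slightly apart from the whole count. Most purple circles lie along an axis, since 9 of 85 Pyr cells and 22 of 160 DMSO cells had both genes.

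RNA of both genes was also present outside cells. Barcodes with 100 to 500 counts, taken as a profile of free RNA, had 5.06 CPM of Spink4 and 11.4 CPM of Tff3 in the Pyr library, and all cells together had 4.72 and 10.2 CPM. In the DMSO library these barcodes had 16.1 CPM of Spink4 and 25.9 CPM of Tff3, and all cells together 15.8 and 13.4 CPM. The part of free RNA in the choice of cells was not tested.

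The defining goblet genes were at or near 0, so the label of goblet-like cells is not used here. Muc2 had 0 counts in the 85 Spink4/Tff3-high cells of the Pyr library and 3 counts in zero-count cells. DMSO cells had 1 and 15 counts of it. Clca1, a secreted goblet protein, had 0 counts in the Pyr class and 1 in the DMSO class, and the mucus lectin Zg16 had 2 and 0. Fcgbp, a mucus protein, had 5 counts in the Pyr class (1.41 CPM, against 1.10 CPM in zero-count cells) and 3 in the DMSO class (0.838 against 1.18 CPM). Atoh1 had 0 counts in both classes of both libraries. Cdx2, the intestinal master regulator, also had 0 counts in all 4. Of the gastric mucins, Muc5ac had 0 counts in both Spink4/Tff3-high classes. Muc6 was at 1.41 and 1.73 CPM in Spink4/Tff3-high and zero-count cells of the Pyr library and at 5.86 and 3.72 CPM in those of the DMSO library.

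Against zero-count cells, 1527 of 13285 genes (11.5%) were higher and 326 (2.45%) lower in Spink4/Tff3-high cells of the Pyr library. The DMSO library had 345 of 13541 genes (2.55%) higher and 314 (2.32%) lower. The median log2 ratio over all these genes was 0.16 in the Pyr library and 0.00 in the DMSO library, so ratios in the Pyr library are to be read against 0.16. Ribosomal protein genes took 28.7% of the counts of Pyr Spink4/Tff3-high cells and 31.6% of those of Pyr zero-count cells, against 26.5% in both DMSO classes. Of 12896 genes measured in both libraries, 96 were higher in both, which was 6.35% of those higher in the Pyr library and 29.4% of those higher in the DMSO library. Likewise 56 were lower in both, 17.6% and 18.5% of those lower. When zero-count cells were weighted to the depth of the Spink4/Tff3-high cells, 1507 of the 1527 and 315 of the 345 higher genes kept their call, as did 322 of the 326 and 300 of the 314 lower ones. Other choices of cells kept far fewer of the higher genes. With thinning to 5000 counts 161 Pyr and 45 DMSO genes kept their call. That setting took 44 Pyr and 144 DMSO cells and also measured the genes on the thinned counts, so far fewer counts were left. With 20% of the cells 481 and 120 genes kept their call. By Spink4 alone 324 and 155 kept it, and by Tff3 alone 919 and 77.

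Among the secreted goblet genes and their regulators, the goblet list had 10 of 23 measured genes higher and 0 lower in the Pyr class, with a median log2 ratio of 0.63. In the DMSO class 4 of 22 were higher and 1 lower, with a median of 0.31. With cells thinned to 5000 counts before the choice and measured on the thinned counts, 0 goblet genes were higher in the Pyr class. With DMSO cells chosen by Tff3 alone, 0 were higher in the DMSO class. Agr2, a protein disulfide isomerase that mucin secretion needs, was at 316 CPM in Spink4/Tff3-high cells and 159 CPM in zero-count cells of the Pyr library (log2 ratio 0.99, interval 0.89 to 1.09). In DMSO cells it was at 950 and 433 CPM (1.13, 1.08 to 1.19). Ern2, the mucous cell form of the stress sensor IRE1, was at 12.4 and 4.56 CPM in the Pyr library (1.44) and 21.5 and 10.8 CPM in the DMSO library (0.99). Klk1, a kallikrein of goblet granules, was at 3.38 and 0.809 CPM (2.06) and at 6.98 and 2.99 CPM (1.22). These 3 genes were the goblet genes higher in both libraries, but not under every choice of cells. DMSO cells chosen by Tff3 alone had log2 ratios of -0.14 for Agr2 and -0.70 for Klk1. Pyr cells chosen after thinning to 5000 counts had -0.605 for Ern2, measured on the thinned counts of 44 cells.

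Spdef was higher in the Pyr class, at 18.6 against 6.33 CPM (1.56, interval 1.13 to 1.97). In the DMSO class it was at 25.4 against 17.9 CPM (0.51, 0.17 to 0.83), under the fold limit. Creb3l1, a transcription factor of secretory cells, was the reverse, at 14.4 and 9.64 CPM in the Pyr library (0.58) and 20.1 and 9.26 CPM in the DMSO library (1.12). The other goblet genes higher in the Pyr class were Creb3l4, the mucin glycosyltransferase gene Galnt12, Sytl2, which codes for a protein of granule release, Ramp1, Bace2 and Slc12a8, with log2 ratios of 0.63 to 1.17. In the DMSO class these 6 had ratios of 0.11 to 0.50, and St3gal6, a sialyltransferase gene, was lower at 2.79 against 6.41 CPM (-1.20). Guca2a, Bcas1, Smim6, Klf4, Tmed3, Pllp and S100a6 passed the rule in neither library. Of the transcription factor list of secretory cells, 7 of 19 were higher in the Pyr class and 3 of 18 in the DMSO class, and none lower. Xbp1, the factor that IRE1 activates, was at 403 and 206 CPM in the Pyr library (0.97) and 233 and 175 CPM in the DMSO library (0.41). The list of endoplasmic reticulum and secretory genes, which holds Xbp1, Agr2 and Ern2, followed little. Of its 41 genes, 5 were higher and 2 lower in the Pyr class, and 2 higher and 0 lower in the DMSO class. Hspa5 of this list ran the other way, at 322 and 568 CPM in the Pyr library (-0.82). In the DMSO library it was at 258 and 369 CPM (-0.52), under the fold limit. Of the mucin glycosylation list, 11 of 24 genes were higher and 1 lower in the Pyr class, and 2 of 24 higher and 2 lower in the DMSO class. The sulphate donor synthase Papss2 was higher in both classes.

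**Figure D2:**
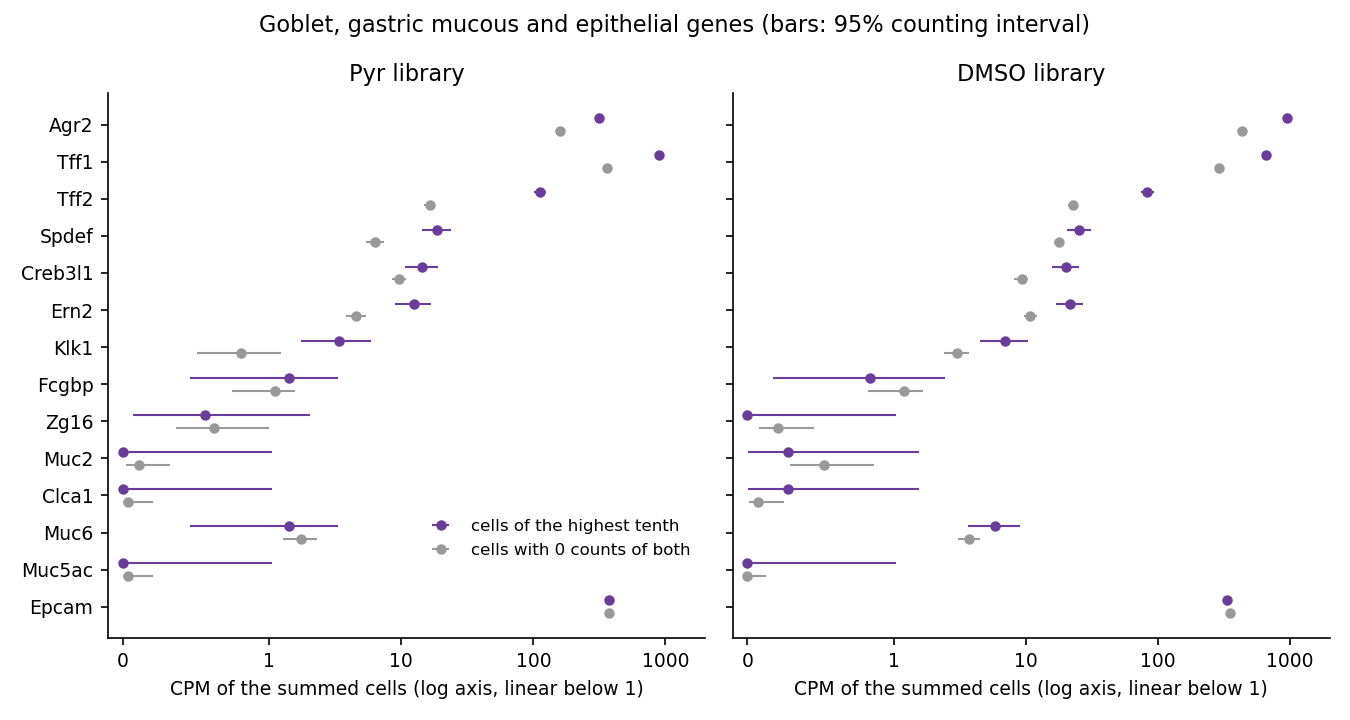
CPM on a log axis that is linear below 1, for goblet, gastric mucous and epithelial genes in the Pyr library (left) and the DMSO library (right), with purple points for Spink4/Tff3-high cells, grey points for zero-count cells and bars for the exact 95% Poisson interval. Agr2, Tff1, Tff2, Ern2 and Klk1 lie to the right in the purple class of both libraries, while Muc2, Clca1, Zg16, Fcgbp and Muc5ac lie near 0 in both classes.

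The gastric trefoil genes were higher in both libraries. Tff2 was at 113 CPM in Spink4/Tff3-high cells and 16.4 CPM in zero-count cells of the Pyr library, 6.88-fold higher (log2 ratio 2.78, interval 2.58 to 2.98). In DMSO cells it was at 83.2 and 22.5 CPM, 3.69-fold higher (1.89, 1.68 to 2.09). A single cell held 49.0% of the Tff2 counts of the Pyr class and 19.1% of those of the DMSO class. Without the cell with the most counts in each class, the log2 ratio was 2.02 in the Pyr library and 1.77 in the DMSO library. After every cell was thinned to 5000 counts, Tff2 was counted in 17.6% of the Pyr class and 4.77% of its zero-count cells, and in 17.5% and 5.97% in the DMSO library. Unthinned shares were 45.9% and 18.6% in the Pyr library and 31.9% and 15.9% in the DMSO library. Tff1 was at 897 and 363 CPM in the Pyr library (1.31, interval 1.25 to 1.36) and 662 and 290 CPM in the DMSO library (1.19, 1.13 to 1.26). A single cell held 17.7% of the Tff1 counts of the Pyr class and 24.7% of those of the DMSO class. DMSO cells chosen by Spink4 alone had a log2 ratio of -0.28 for Tff1, so its direction turned there. The thinned share of cells with Tff1 was 58.8% and 35.7% in the Pyr library, and 33.8% and 28.2% in the DMSO library. Unthinned it was 77.6% and 67.3%, and 51.9% and 49.2%. In the free RNA profile of the Pyr and DMSO libraries, Tff2 was at 25.0 and 24.3 CPM, Tff1 at 365 and 307 CPM, and Agr2 at 198 and 519 CPM. With 10% of each summed class subtracted in the profile of free RNA, 1512 of 1527 Pyr and 340 of 345 DMSO higher genes kept their call. The 10% was a set value and the cells were not chosen anew, so the part of free RNA in these ratios was not tested further.

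Further markers of the mucous neck lineage and of gastric pyloric-type metaplasia followed in part. Of that list, 7 of 14 genes were higher and 0 lower in the Pyr class, and 6 of 15 were higher and 1 lower in the DMSO class. Besides Tff2 and Agr2, the genes higher in both classes were Cd44, Gkn3 and Pgc. Cd44, a hyaluronan receptor, was at 167 and 89.9 CPM in the Pyr library (0.89) and 170 and 105 CPM in the DMSO library (0.69). The gastrokine Gkn3 was at 3.95 and 1.21 CPM (1.70) and at 22.3 and 7.66 CPM (1.54), with a single cell holding 50% and 36.2% of its counts in the classes. The pepsinogen gene Pgc was at 3.95 and 1.54 CPM (1.35) and at 8.93 and 4.53 CPM (0.98). Of the surface mucous list, 7 of 18 genes were higher in the Pyr class and 4 of 18 in the DMSO class, where Gkn1, with 0 counts against 40, was lower. The sulphotransferase Sult1c2 was at 80.1 and 45.6 CPM in the Pyr library and 108 and 65.3 CPM in the DMSO library.

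Intestinal genes of other lineages followed only in part. Of the general intestinal list, 5 of 20 genes were higher and 2 lower in the Pyr class, and 3 of 20 were higher and 0 lower in the DMSO class. Of all genes 11.5% were higher and 2.45% lower in the Pyr class, and 2.55% and 2.32% in the DMSO class. The counts of this list and of the enterocyte, Paneth and tuft lists are to be read against these shares. Ihh, a hedgehog ligand of gut epithelium, was at 51.6 and 18.9 CPM in the Pyr library (1.45, interval 1.20 to 1.69) and 59.7 and 33.8 CPM in the DMSO library (0.82, 0.60 to 1.04). Lgals2, a galectin, was at 16.9 and 9.30 CPM (0.86) and at 35.5 and 19.1 CPM (0.89). Lgals4, an intestinal galectin, was higher in the Pyr class at 617 and 333 CPM (0.89) and, under the fold limit, at 1045 and 713 CPM in the DMSO library (0.55). Of the enterocyte list, 4 of 11 measured genes were higher in the Pyr class and 2 of 12 in the DMSO class, and 0 were lower. The brush border myosin Myo1a was at 6.21 and 1.47 CPM (2.08) and at 11.2 and 3.27 CPM (1.77). The aminopeptidase Anpep was at 14.7 and 6.69 CPM (1.13) and at 25.7 and 11.9 CPM (1.11). The absorptive genes Fabp1 and Alpi had 0 counts in both classes of both libraries.

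Of the Paneth list, 2 of 6 genes were higher and 0 lower in the Pyr class, and 2 of 6 higher and 1 lower in the DMSO class. The lower one was Nupr1, at 393 and 912 CPM in the DMSO library (-1.22). Several Paneth and endocrine values rested on single cells. Itln1, a lectin of Paneth and goblet cells, was at 58.1 and 18.9 CPM in the Pyr library (1.62) and 72.9 and 25.4 CPM in the DMSO library (1.52). A single cell held 179 of its 206 counts in the Pyr class and another 146 of its 261 in the DMSO class. Without the cell with the most counts, the Pyr ratio was -1.07 and the DMSO ratio 0.494. The same Pyr cell held 692 of the 1176 counts of Mmp7, a matrix protease of Paneth cells, and had 2 Tff3 and 0 Spink4 counts. The DMSO cell had 225 Mmp7 counts, and the Paneth lysozyme Lyz1 had 0 counts in both cells. Mmp7 was also higher across the DMSO class, at 675 and 391 CPM (0.79), with 9.84% of its counts in 1 cell, but stood at -0.15 in DMSO cells chosen by Tff3 alone. Kcnn4, a potassium channel gene of the same list, was at 25.1 and 15.6 CPM in the Pyr library (0.69) and 18.4 and 23.5 CPM in the DMSO library (-0.35). Ghrl, the ghrelin gene of gastric endocrine cells, had 84 counts in the Pyr class, all in 1 cell that also held 8 counts of the granule protein gene Chga, 2 of Spink4 and 2 of Tff3. In zero-count cells of the Pyr library Ghrl had 1 count. These single cells were singled out after their values were seen. Of the tuft list, 1 of 7 genes was higher and 1 lower in the Pyr class and 0 of 8 higher and 2 lower in the DMSO class, and Ptgs1 was lower in both. The higher one was the phospholipase gene Plcg2, at 10.7 and 7.10 CPM. By Spink4 alone, Kcnn4 and Plcg2 stood at -0.30 and -0.25 in the Pyr library. The tuft cell factor Pou2f3 was at 78.1 and 98.4 CPM in the Pyr library and 77.1 and 80.3 CPM in the DMSO library.

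The genes that the rule for both libraries put highest included further secreted and metabolic genes. Reg3g, a bactericidal lectin of gut epithelium, was at 36.1 and 10.996 CPM in the Pyr library (1.72, interval 1.40 to 2.02) and 113 and 31.6 CPM in the DMSO library (1.84, 1.66 to 2.01). Ttr, the thyroxine and retinol transporter, was at 44.3 and 13.0 CPM (1.77) and at 53.3 and 19.3 CPM (1.46). Its thinned share of cells was 18.8% and 4.91% in the Pyr library and 18.8% and 7.56% in the DMSO library. Fam3d, a secreted gut peptide gene, was at 73.1 and 30.7 CPM (1.25) and at 90.7 and 44.3 CPM (1.04). Acss1, Ifi27l2b, the glutamine synthetase gene Glul, the selenium carrier gene Selenop and the potassium channel subunit gene Kcne3 were the other genes of this group, with log2 ratios of 0.88 to 1.25 in the Pyr library and 0.61 to 1.08 in the DMSO library. In DMSO cells chosen by Tff3 alone, Ifi27l2b was at -0.12, Glul at -0.13 and Selenop at -0.15, so their direction turned. Slpi and Lcn2, both secreted by inflamed epithelium, were lower in both. Slpi was at 8.46 and 24.6 CPM in the Pyr library (-1.54) and 1.68 and 5.29 CPM in the DMSO library (-1.66). Lcn2 was at 8.46 and 14.7 CPM (-0.80) and at 0.558 and 3.31 CPM (-2.57), and turned to 0.40 in Pyr cells chosen by Spink4 alone.

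Genes of the cornified envelope of squamous cells were among the lowest in both libraries. Cnfn was at 2.54 and 41.4 CPM in the Pyr library (-4.03, interval -5.16 to -3.10) and 26.0 and 95 CPM in the DMSO library (-1.87, -2.19 to -1.57), where a single cell held 43.0% of the counts of the class. Sprr1a, a cross-linked envelope protein gene, was at 4.51 and 30.7 CPM (-2.77) and at 10.9 and 42.6 CPM (-1.97). Of the squamous list, 5 of 21 genes were lower and 1 higher in the Pyr class, and 5 of 24 lower and 1 higher in the DMSO class. Ly6c1 was at 16.4 and 53.4 CPM (-1.71) and at 32.1 and 73.2 CPM (-1.19). Sprr2a3, a gene of the same list, did not follow, at 5052 and 5520 CPM in the Pyr library (-0.13) and 8808 and 8240 CPM in the DMSO library (0.10). Few cells held Cnfn at all, 7.06% and 11.99% of Spink4/Tff3-high and zero-count cells of the Pyr library and 8.12% and 14.7% of those of the DMSO library before thinning. These values varied with the choice of cells. Over all choices tried in the DMSO library, the log2 ratio of Cnfn ran from -4.53 to -0.094 and that of Sprr1a from -3.37 to -0.294, with the upper ends by Tff3 alone and by Spink4 alone. DMSO cells with 3 to 9 counts of Spink4 and Tff3 had 93.6 CPM of Cnfn, against 95 CPM in zero-count cells.

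Some stress genes were also lower. Of the integrated stress response list, 8 of 29 genes were lower and 1 higher in the Pyr class, and 8 of 29 lower and 0 higher in the DMSO class. Ddit3, which encodes the stress factor CHOP, was at 162 and 341 CPM in the Pyr library (-1.08, interval -1.20 to -0.95) and 21.5 and 44.0 CPM in the DMSO library (-1.03, -1.38 to -0.70). In thinned cells its share was 30.6% and 56.1% in the Pyr library, while in the DMSO library it was 12.5% and 12.8%. Trib3, a pseudokinase target of CHOP, was at 72.5 and 117 CPM (-0.69) and at 7.26 and 27.7 CPM (-1.93). Gdf15, a stress cytokine gene, was lower in the Pyr class at 349 and 811 CPM (-1.21) and was at 69.8 and 104 CPM in the DMSO library (-0.58). Of the hypoxia list 4 of 24 genes were lower in each class, with Ndrg1 and the lactate exporter gene Slc16a3 in both. The remaining genes of the lowest group were the long RNA Wincr1, the histone genes H1f2 and H2bc4, the adhesion receptor gene Pvr and S100a14, with log2 ratios of -2.07 to -0.81 in the Pyr library and -1.26 to -0.64 in the DMSO library.

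**Figure D3:**
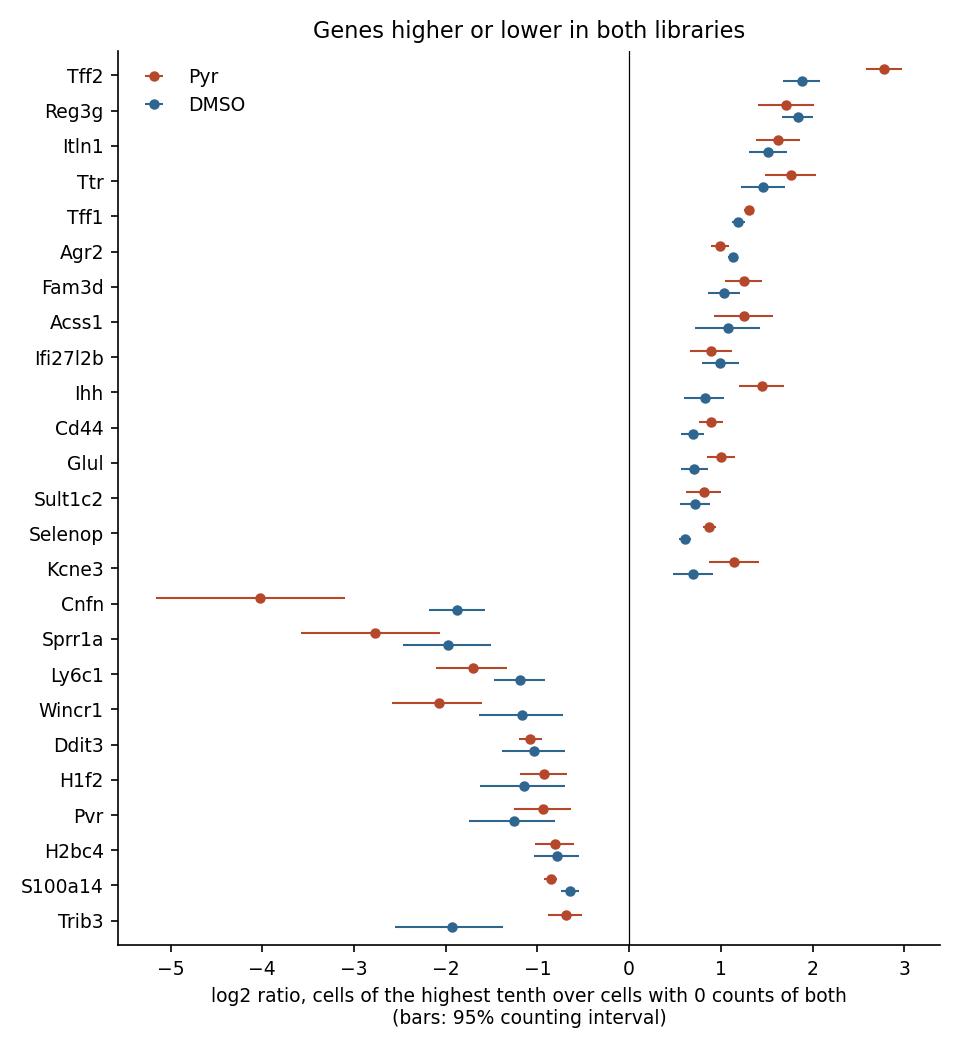
Log2 ratio of Spink4/Tff3-high over zero-count cells for the 15 highest and 10 lowest named genes, in the Pyr (red) and DMSO (blue) libraries, with the exact 95% counting interval as bars. All 25 genes lie on the same side of 0 in both libraries by the rule that chose them, from 2.78 for Tff2 to -4.03 for Cnfn in the Pyr library.

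The libraries differed for other lists. Of the stem cell and Wnt list, 12 of 25 genes were higher in the Pyr class, among them Prom1 at 223 and 95.9 CPM (1.22) and Sox9 at 20.6 and 10.96 CPM (0.91). In the DMSO class Cd44 of 26 was higher, and Prom1 was at 167 and 123 CPM (0.44). Lgr5 was at 10.4 and 7.21 CPM in the Pyr library and 25.7 and 22.8 CPM in the DMSO library, within the rule in neither. Of the interferon list, 7 of 15 genes were higher and 1 lower in the Pyr class and 1 of 13 higher in the DMSO class. These counts stand against 11.5% of all genes higher in the Pyr class and 2.55% in the DMSO class. For the interferon factor Irf7, at 18.3 and 9.19 CPM in the Pyr library, a single cell held 52.3% of the counts of the class, and its log2 ratio was 0.075 without the cells with the most counts. The membrane mucin Muc1 was at 211 and 91.3 CPM in the Pyr library (1.21) and 283 and 260 CPM in the DMSO library (0.12). These differences between the libraries were not tested. By phase calls, 5.88% of Spink4/Tff3-high and 14.7% of zero-count cells were in S phase in the Pyr library, and 10% and 10.2% in the DMSO library. The shares called G2M were 18.8% and 20.2%, and 24.4% and 34.8%. The calls read sparse counts and depth differed, and their part in the results was not tested. Among cells called neither S nor G2M, 591 genes were higher in the DMSO class.

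Some of these genes, but not all, ran in 1 direction with the number of Spink4 and Tff3 counts per cell. In the Pyr library Agr2 was at 159, 205, 247, 309 and 365 CPM in cells with 0, 1, 2, 3 to 9 and 10 or more counts of the pair. Ttr was at 13.0, 19.9, 26.4, 50.8 and 58.3 CPM, and Ihh at 18.9, 25.6, 36.6, 50.3 and 64.4 CPM over the same steps. All 3 ran in 1 direction across the 5 steps in the Pyr library. Tff1 did not, at 363, 258, 362, 800.5 and 2266 CPM, nor did Tff2, at 16.4, 41.9, 122, 67.9 and 342 CPM. Spdef and Ern2 were highest at 3 to 9 counts, with 23.6 and 15.6 CPM. Over the same steps of the DMSO library Agr2 was at 433, 520, 955, 966 and 772 CPM, and Reg3g at 31.6, 66.5, 85.9, 128 and 55.8 CPM, so the highest step, of 20 cells, was not the highest level. Ttr was at 19.3, 22.1, 50.2, 46.8 and 33.2 CPM there, and Ihh at 33.8, 37.6, 28.4, 47.8 and 75.1 CPM. The Pyr step of 10 or more counts held 11 cells. A single cell of this step held 196 of the 400 Tff2 counts of the whole Pyr class. Another held 563 of its 3181 Tff1 counts. The Tff2 and Tff1 levels of this step thus rested in part on single cells. Median depth differed between the steps, from 27894 to 59550 counts in the Pyr library and from 17791 to 45170 in the DMSO library.

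Cells with Spink4 only and cells with Tff3 only were also set against each other. Among genes measured in both classes of cells, 201 of 8109 (2.48%) were higher and 267 (3.29%) lower in Spink4-only than in Tff3-only cells of the Pyr library. Of the DMSO genes, 365 of 7901 (4.62%) were higher and 478 (6.05%) lower. Both DMSO shares were above those of the whole class against zero-count cells, 2.55% higher and 2.32% lower. In the Pyr library the whole class had 11.5% higher and 2.45% lower. Fewer cells and genes were compared here, so the shares are set side by side without a test. Of 7399 genes measured in both libraries, 26 were higher with Spink4 in both, which was 14.5% of those in the Pyr library and 8.18% of those in the DMSO library. With Tff3, 48 were higher in both, 20% and 10.98%. In opposite directions stood 12 and 9 genes. Spink4-only cells of both libraries were higher in Ifitm3, an antiviral membrane protein gene, at 1885 and 1128 CPM in the Pyr library and 2400 and 1202 CPM in the DMSO library. The glycolytic aldolase Aldoc was at 56.6 and 25.2 CPM and at 102 and 36.9 CPM. Glul was at 189 and 115 CPM and at 190 and 60.8 CPM, and Spdef at 36.4 and 11.2 CPM and at 33.6 and 20.3 CPM.

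Tff3-only cells of both libraries were higher in Cyp2b10, a xenobiotic-metabolizing cytochrome, at 16.2 CPM in Spink4-only and 91.7 CPM in Tff3-only cells of the Pyr library (log2 ratio -2.50) and at 6.72 and 32.6 CPM in the DMSO library (-2.28). A single cell held 51.1% of the 45 Cyp2b10 counts of the DMSO Tff3-only cells. The small heat shock protein gene Cryab was at 5.39 and 27.9 CPM (-2.37) and at 13.4 and 47.8 CPM (-1.83). Phgr1 was at 399 and 816 CPM (-1.03) and at 341 and 803 CPM (-1.24), and S100a6 at 4248 and 6820 CPM (-0.68) and at 3400 and 6683 CPM (-0.97). Tff2 was also higher with Tff3, at 25.6 and 153 CPM in the Pyr library (-2.58) and 42.4 and 79.7 CPM in the DMSO library (-0.91). A single cell held 57.5% of the Tff2 counts of Tff3-only cells in the Pyr library and 39.1% in the DMSO library. Agr2 and Reg3g were higher in Spink4-only cells of the DMSO library only, with Agr2 at 1404 and 480 CPM (1.55) and Reg3g at 172 and 29.0 CPM (2.57). In the Pyr library Agr2 was at 332 and 294 CPM (0.17), and Reg3g at 37.8 CPM in both. The difference between the libraries was not tested. Of the cornified genes, Cnfn was at 3.36 and 60.1 CPM in Spink4-only and Tff3-only cells of the DMSO library (-4.16), where 5 of the 60 Tff3-only cells held all of its 83 counts and 1 cell 48.2% of them. Sprr1a ran the other way there, at 18.8 and 2.90 CPM (2.70). In the 21 Spink4-only cells of the Pyr library, a single cell held 33.8% of the Ifitm3 counts and 27.9% of the Glul counts.

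**Figure D4:**
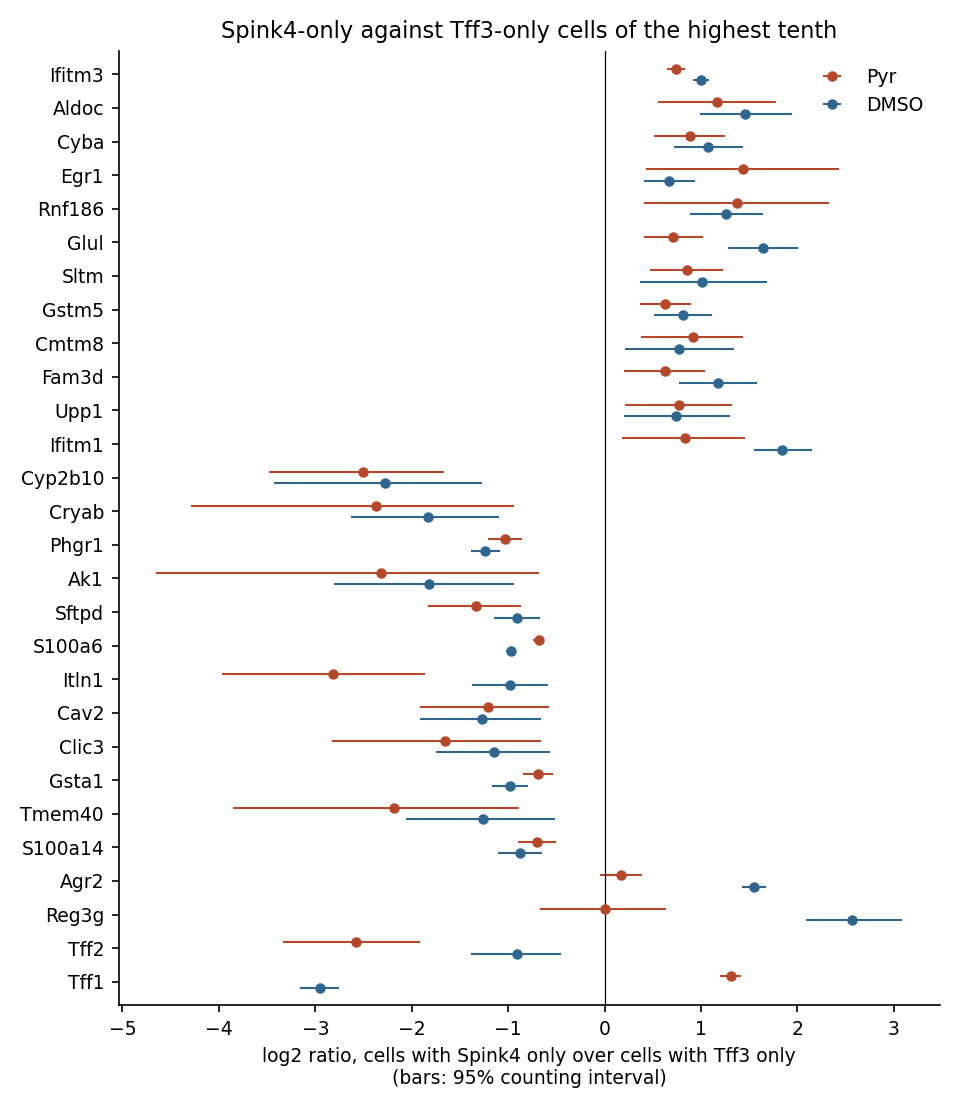
Log2 ratio of Spink4-only over Tff3-only cells within the top 10%, in the Pyr (red) and DMSO (blue) libraries, with the exact 95% counting interval as bars. The 12 genes from Ifitm3 to Ifitm1 lie right of 0 and the 12 from Cyp2b10 to S100a14 left of 0 in both libraries by the rule that chose them, while Tff1 lies at 1.31 in the Pyr library and -2.96 in the DMSO library.

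The Pyr and DMSO classes were set against each other, with the same contrast in zero-count cells beside it. The lower limits of the classes differed, 0.292 counts per 10000 in the Pyr library and 0.710 in the DMSO library, and so did their shares of Spink4-only cells. Spink4 was at 38.9 and 138 CPM in the Pyr and DMSO classes and Tff3 at 90.3 and 115 CPM. Over all cells, Spink4 was at 4.72 CPM in the Pyr library and 15.8 CPM in the DMSO library, and Tff3 at 10.2 and 13.4 CPM. In Spink4/Tff3-high cells, 997 of 10445 genes (9.55%) were higher and 862 (8.25%) lower in the Pyr library. In zero-count cells 1138 of 14744 genes (7.72%) were higher and 2624 (17.8%) lower. Both contrasts use the same 2 libraries.

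Stress and interferon genes led the genes higher in the Pyr class. Trib3 was at 72.5 CPM in the Pyr class and 7.26 CPM in the DMSO class (log2 ratio 3.32), and the ratio in zero-count cells was 2.08. Ddit3 was at 162 and 21.5 CPM (2.91, against 2.96 in zero-count cells) and Gdf15 at 349 and 69.8 CPM (2.32, against 2.96). Chac1, a glutathione-degrading stress enzyme, was at 58.1 and 8.10 CPM (2.84, against 1.75), and the stress factor Atf5 at 50.2 and 8.10 CPM (2.63, against 1.92). The interferon gene Oas1a was at 32.2 and 3.35 CPM (3.26, against 2.11), with 30.7% of the Pyr counts in a single cell. Hsd17b13, a lipid droplet protein gene, was at 31.03 and 3.91 CPM (2.99, against 2.36). Ghrl also met the rule, through the single cell described above. Of the integrated stress response list 21 of 28 genes were higher in the Pyr class, and 20 of 29 in zero-count cells. Of the interferon list 10 of 11 and 13 of 15 were higher.

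The genes lowest in the Pyr class were mostly immediate early genes. Fosb was at 1.13 CPM in the Pyr class and 79.0 CPM in the DMSO class (-6.13, against -5.56 in zero-count cells), and Fos at 38.4 and 601 CPM (-3.97, against -3.74). Egr1 was at 12.4 and 184 CPM (-3.89, against -3.35), Atf3 at 11.3 and 161 CPM (-3.84, against -2.47) and the phosphatase gene Dusp1 at 5.08 and 65.1 CPM (-3.68, against -3.98). Slc16a3 was at 2.54 and 65.9 CPM (-4.70, against -4.18), and Tafa2 at 0.282 and 32.4 CPM (-6.84, against -4.96). Of the immediate early list 16 of 21 genes were lower in the Pyr class and 20 of 23 in zero-count cells. Of the hypoxia list 18 of 23 and 19 of 24 were lower.

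For the genes that set the class apart from zero-count cells, the contrast between the libraries varied. Tff1 was at 897 CPM in the Pyr class and 662 CPM in the DMSO class (0.44) and Tff2 at 113 and 83.2 CPM (0.44), both under the fold limit. In zero-count cells their ratios were 0.33 and -0.46. Agr2 was at 316 and 950 CPM (-1.59, against -1.45 in zero-count cells) and Reg3g at 36.1 and 113 CPM (-1.65, against -1.52), so both were lower in the Pyr library in either class of cells. Spdef was at 18.6 and 25.4 CPM (-0.45), while in zero-count cells it was at 6.33 and 17.9 CPM (-1.50). Nupr1, a stress-induced chromatin protein gene, was at 1595 and 393 CPM (2.02), while in zero-count cells it was at 1272 and 912 CPM (0.48). The difference of these ratios was not tested. Of the goblet list 2 of 20 genes were higher and 4 lower in the Pyr class, and 1 of 24 higher and 9 lower in zero-count cells. Of all genes 9.55% were higher and 8.25% lower in the Pyr class, and 7.72% and 17.8% in zero-count cells, so 2 of 20 is near the share over all genes.

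**Figure D5:**
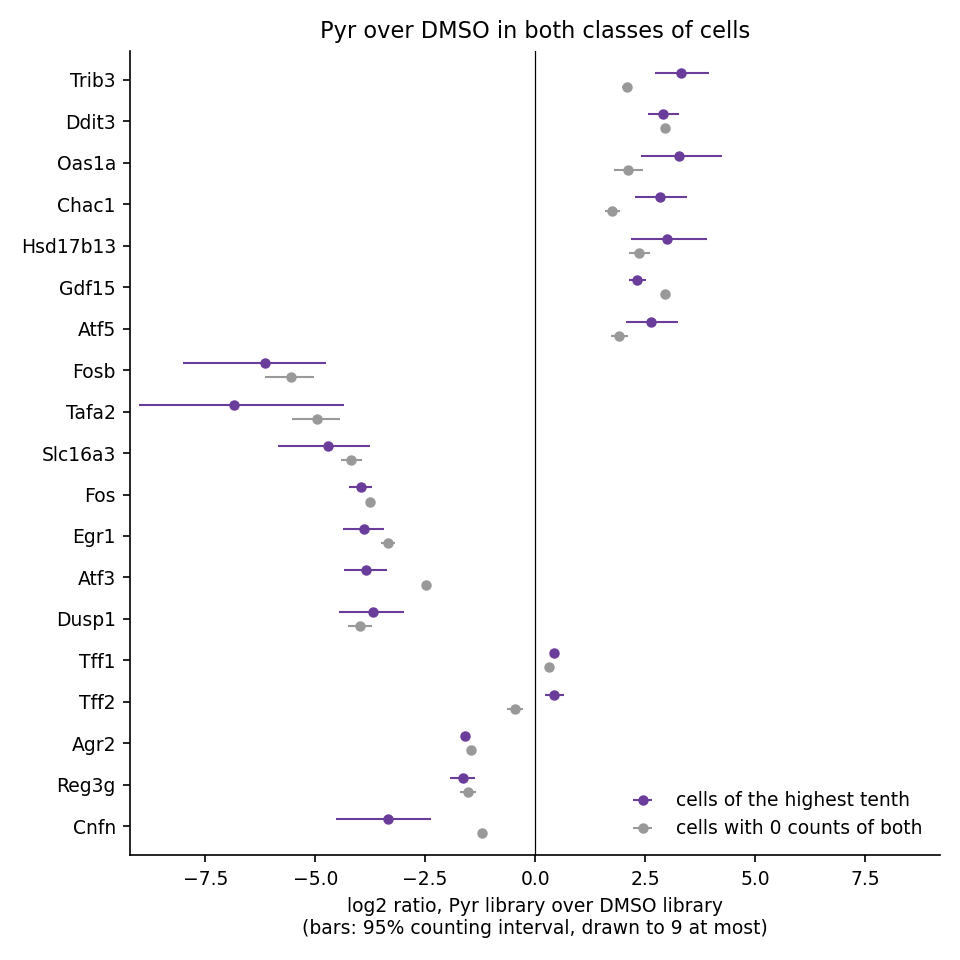
Log2 ratio of the Pyr over the DMSO library in Spink4/Tff3-high cells (purple) and in zero-count cells (grey), with exact 95% counting intervals as bars. Stress genes lie right of 0 and immediate early genes left of 0 in both classes, and Trib3 stands at 3.32 in Spink4/Tff3-high and 2.08 in zero-count cells.

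Most of the nearest neighbours of the class lay outside it, though the class was more frequent among them than among neighbours of other cells. With Spink4, Tff3, Tff1, Clu and Agr2 left out, each cell was given its 15 nearest neighbours in its library. Of the neighbours of Spink4/Tff3-high cells, 17.9% were of the same class in the Pyr library and 13.8% in the DMSO library, against 7.58% and 8.78% of the neighbours of other cells. For the top 10% of cells by Tff1, chosen in the same way, 18.7% and 23.4% of neighbours were of the same class, against 8.13% and 8.24%. For the top 10% by Clu and Agr2 these shares were 26.1% and 36.7%, against 4.26% and 5.31%. The genes that chose these classes were among those left out, and the shares are set side by side without a test. Of the Spink4/Tff3-high cells, 17 of 85 Pyr and 23 of 160 DMSO cells (20% and 14.4%) were also in the top 10% by Tff1, and 13 and 31 (15.3% and 19.4%) in the top 10% by Clu and Agr2. In the DMSO library, 20 of the 78 Spink4-only cells and 5 of the 60 Tff3-only cells were in the top 10% by Clu and Agr2, while 4 and 13 were in the top 10% by Tff1. In the Pyr library the order was the other way for Clu and Agr2, with 1 of 21 Spink4-only and 11 of 55 Tff3-only cells, and 3 and 11 of them were in the top 10% by Tff1.

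Some levels differed from those in the classes most alike. Reg3g was at 36.1 CPM in Spink4/Tff3-high cells and 6.76 CPM in the top 10% by Tff1 of the Pyr library, and at 113 and 8.64 CPM in the DMSO library. Cnfn ran the other way, at 2.54 and 129 CPM in the Pyr library and 26.0 and 261 CPM in the DMSO library. Against the top 10% by Clu and Agr2, Tff1 was at 897 and 324 CPM in the Pyr library and 662 and 149 CPM in the DMSO library, while Reg3g was at 36.1 and 29.0 CPM and at 113 and 137 CPM. Other genes were close to or above the level of Spink4/Tff3-high cells in that class. Tff2 was at 113 and 100.2 CPM, Ttr at 44.3 and 37.4 CPM, Ern2 at 12.4 and 15.2 CPM and Itln1 at 58.1 and 123 CPM in the Pyr library. In the DMSO library Ttr was at 53.3 and 73.9 CPM, Ern2 at 21.5 and 22.8 CPM and Creb3l1 at 20.1 and 24.2 CPM. These classes share cells, and the differences were not tested.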

How the data were processed

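The authors deposited raw counts, in whole numbers, for 32227 genes in each barcode. Per the submitters' processing notes, the software was Partek and the build GRCm39. Cells were captured with the PIPseq method per the labels' protocols. The aligner, the annotation, any filter on barcodes and whether a count is a molecule were not given in the sources used. The libraries hold 64412821 counts in 353485 barcodes (Pyr) and 64212118 counts in 331629 barcodes (DMSO). Cells were barcodes with at least 13100 (Pyr) or 9320 (DMSO) counts.

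Counts were summed over the cells of a class, with Poisson intervals of CPM and conditional binomial intervals of ratios, both exact. These and floors of 3 counts for a sum of 0 cover counting error only. Spink4 and Tff3 were left out of every count of genes. The computation was tested on simulated counts. A symbol shared by several genes (27 symbols, Ddit3 among them) stands for the gene with the lowest Ensembl number. Neighbours used 2000 variable genes and 30 principal components, and doublet scores came from Scrublet in scanpy 1.11.5, under Python 3.11.15 and scipy 1.17.1. Thinning to 5000 counts left out 0 cells.

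The class and the 30 gene lists were chosen with earlier results of these data known. The genes named are the 15 highest and 10 lowest by the interval bound nearest 0 in both libraries, with at least 20 CPM and without mitochondrial, ribosomal and unnamed genes. To these come the goblet genes, up to 4 genes of each other list by mean size of the log2 ratio, 12 each for Spink4-only and Tff3-only cells, and 8 each way between the libraries, of which 1 is not reported here. Other genes were named as defining markers or after their values were seen: Muc5ac, Muc6, Cdx2, Fabp1, Alpi, Lyz1, Chga, Atp4b, Pga5, Epcam, Gkn1, Lgr5, Sox9, Pgc, Ptgs1 and Sprr2a3.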

Additional observations from a re-analysis of the deposited data

Results flagged for a closer look

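Among the genes named, 3 differed between Spink4-only and Tff3-only cells in opposite directions in the libraries, beyond the fold limit in each. They are part of the 12 and 9 genes with opposite directions over all genes. Tff1 was at 1713 CPM in Spink4-only and 690 CPM in Tff3-only cells of the Pyr library (log2 ratio 1.31, interval 1.20 to 1.42), and at 155 and 1205 CPM in the DMSO library (-2.96, -3.16 to -2.76). A single cell held 44.3% of the Tff1 counts of the Spink4-only cells in the Pyr library. Bpifb1, a secreted lipid-binding protein gene, was at 62.0 and 203 CPM in the Pyr library (-1.71, -2.18 to -1.27) and 238 and 154 CPM in the DMSO library (0.63, 0.38 to 0.88). Cd68, a lysosomal protein gene, was at 2.70 and 28.3 CPM in the Pyr library (-3.39, -6.47 to -1.48) and 22.2 and 5.07 CPM in the DMSO library (2.13, 0.93 to 3.55). The Cd68 values rest on 2 and 63 counts in the Pyr library and 33 and 7 counts in the DMSO library. The differences between the libraries were not tested.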

How the results depend on the processing

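No paired analysis was possible because each treatment has 1 library. With 1 library and a mostly small number of Spink4 and Tff3 counts per cell, the choice of cells is the main limit. Counts of genes that moved by over 1.5 times are given first, against 1527 higher and 326 lower genes in the Pyr library, 345 and 314 in the DMSO library, and 997 and 862 between the libraries. Taking 20% of the cells gave 652 higher genes in the Pyr library and 1454 lower between the libraries. Choosing by Spink4 alone gave 571 higher genes in the Pyr library and 8 higher goblet genes in the DMSO library, and by Tff3 alone 0 such goblet genes. Thinning to 5000 counts gave 393 higher and 77 lower genes and 0 higher goblet genes in the Pyr library. It gave 184 and 174 genes in the DMSO library, and 292 and 314 between the libraries. The genes were then also measured on the thinned counts. A mean over cells gave 564 higher genes in the DMSO library, and barcodes with at least 3000 counts 971 in the Pyr library. A 2-fold limit gave 515 and 151 genes with 5 goblet genes in the Pyr library, 148 and 150 in the DMSO library, and 385 and 413 between the libraries. Cells called neither S nor G2M gave 591 higher genes and 7 goblet genes in the DMSO library. Leaving out the top cell of each gene gave 214 higher genes there.

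Among log2 ratios of single genes, 48 turned direction. Itln1 in the Pyr library turned to -0.79 with 5% of the cells, -0.67 by Spink4 alone, -2.35 with thinning, -1.11 in cells in neither phase, -1.18 with at least 3 counts and -1.07 without the top cell. With 20% of the cells, Brip1 turned to 0.10 in the Pyr library and Lcn2 to 0.23 in the DMSO library. By Spink4 alone, the Pyr values were -0.30 for Kcnn4, -0.25 for Plcg2, 0.40 for Lcn2, -0.18 for Bpifb1, 0.10 for Slc16a3 and 0.42 for Brip1, and the DMSO values -0.28 for Tff1 and 0.39 for Klf2. By Tff3 alone, the DMSO values were -0.14 for Agr2, -0.12 for Ifi27l2b, -0.13 for Glul, -0.15 for Selenop, -0.70 for Klk1, -0.15 for Mmp7, 0.07 for Lcn2, 0.01 for Fosl1, -0.02 for Ifi27 and -0.13 for Cxcl5. With thinning, the Pyr values were 0.395 for Ly6c1, -0.605 for Galnt12, -0.605 for Ern2, -0.007 for Slc12a8, -1.12 for Lgals2, -1.95 for Kcnn4, -0.26 for Sox2, -0.052 for Bpifb1, -0.26 for Kif11, 0.55 for Aurkb, -0.62 for Ocln and 0.032 for Areg. The thinned DMSO values were -0.16 for Itln1, -0.93 for Papss2, 0.15 for Fosl1 and 0.33 for Nusap1. Both sets of thinned values were measured on the thinned counts, with 44 Pyr and 144 DMSO cells in the class. With the counts of each cell divided at random into 2 sets, and cells chosen on 1 set and measured on the other, Lcn2 was at 0.30, Bpifb1 at -0.30 and Icam1 at -0.32 in the Pyr library, and Klf2 at 0.14 in the DMSO library. In DMSO cells in neither phase Cxcl5 was at -0.145, and with at least 3 counts Itln1 was at -0.034. The cause of these turns was not tested. A further 870 ratios moved beyond their counting interval and 3530 did not. The choice of at least 3 counts, of leaving out the top cell, and all choices for the contrast between the libraries were added after seeing the data.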
